A study of Mus musculus with 8 samples.

Results

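The genes described here encode enzymes that act on, or stand next to, the handling of deoxysphingoid bases: the ceramide synthases Cers2, Cers4, Cers5 and Cers6, the desaturases Degs1 and Fads3, and the cytochrome P450 genes Cyp4f13, Cyp4f16, Cyp4f17 and Cyp4f18. They were chosen by symbol, and all 10 were found among the 22962 genes of the deposited FPKM table (the reads of each gene divided by its length and by the library total). Wild-type mouse gonadal fat was the source of a stromal vascular fraction, which holds the cells of the tissue other than its floating fat cells. These cells were differentiated in culture, are labelled as mature adipocytes, and on day 6 were given DoxSa (4 libraries) or the solvent DMSO (4 libraries). What DoxSa stands for is not spelled out in the labels, and since they name no separate animals or cultures, p-values cover only the spread between these samples, which may be technical.

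Sphingoid bases are the backbones of sphingolipids, and 1-deoxysphingoid bases, the theme of the series title, arise when serine palmitoyltransferase takes alanine in place of serine. Such a base lacks the hydroxyl group to which head groups and the phosphate of the usual exit route are attached. Ceramide synthases join a fatty acid to the base, FADS3 can place a cis double bond in the deoxy base, and enzymes of the CYP4F subfamily have been implicated in its oxidative breakdown. DEGS1 makes the double bond of ordinary ceramides and is not the enzyme that desaturates 1-deoxysphinganine, so its place among these genes is that of the canonical counterpart. Which of the mouse Cyp4f enzymes act on deoxy bases is not given by the labels.

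The Cyp4f genes are close copies, which bears on how well reads can be told apart. The stretch below encodes the loop that holds the heme iron, through its cysteine codon tgc at bases 37 to 39 of the window, and is shown because it lies in the most characteristic part of a P450. Sequences are from transcripts of GENCODE M21 (GRCm38), 5′ to 3′ on the coding strand, 60 bases each, and capitals mark the 5 positions that are not the same in all 4 genes.
Cyp4f13: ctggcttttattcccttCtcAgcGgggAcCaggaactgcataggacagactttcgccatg
Cyp4f16: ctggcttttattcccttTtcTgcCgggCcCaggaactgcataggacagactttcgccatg
Cyp4f17: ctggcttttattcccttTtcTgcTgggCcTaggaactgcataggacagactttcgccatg
Cyp4f18: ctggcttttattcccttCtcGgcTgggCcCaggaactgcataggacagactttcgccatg
The window starts at base 1363 of the coding sequence of Cyp4f13 and at base 1366 of the other 3. Over the whole coding sequence, Cyp4f13, Cyp4f16 and Cyp4f17, which all lie on chromosome 17, were between 83.1% and 84.5% identical, and Cyp4f18, on chromosome 8, was 77.1% to 77.3% identical to them. Cyp4f16 and Cyp4f17 share a run of 101 identical bases. Of the 2143 windows of 100 bases in the longest coding transcript of Cyp4f16, 210 (9.80%) also occur in transcripts of Cyp4f17 or Cyp4f37, against 2 of 2841 for Cyp4f17 and 0 of 1653 for Cyp4f13. Read length is not given in the sources used here, and the values of Cyp4f16 and Cyp4f17 are uncertain to the extent that such reads were divided or dropped.

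The ceramide synthases are further apart, and the closest pair is shown in its most alike coding stretch, with capitals at the 12 of 60 bases that differ.
Cers5: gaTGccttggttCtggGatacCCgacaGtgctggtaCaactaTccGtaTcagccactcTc
Cers6: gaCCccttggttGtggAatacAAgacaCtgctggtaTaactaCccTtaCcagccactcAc
The windows start at coding bases 492 of Cers5 (chromosome 15) and 465 of Cers6 (chromosome 2). Coding identity of the 4 genes ranged from 60.2% for Cers4 with Cers5 to 68.6% for Cers5 with Cers6, and no window of 100 bases of Cers2, Cers5 or Cers6 occurs in transcripts of another gene. Of the windows of Cyp4f18, 1.12% also occur in transcripts of Zfp961. In Cers4, 8.39% of windows also occur in transcripts of the pseudogene Vmn2r-ps89.

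All 8 libraries were deep, with totals recovered from the FPKM steps of 39213008 to 41365861 reads. Fat cell genes were abundant in both groups: Adipoq, which encodes adiponectin, averaged 772 ± 19.2 FPKM in DoxSa and 774 ± 29.8 FPKM in DMSO (SD, n = 4 each). The cultures were not fat cells alone. The 12 macrophage markers summed to between 7898 and 8426 FPKM in DoxSa and between 7105 and 8160 FPKM in DMSO. Of the 12, 2 were called higher by the test described below, Cd14 and Fcgr1, beside 3.88% of all tested genes. All 12 had a positive log2 fold change, though that of Csf1r was only 0.00042. Of all 12060 tested genes, 6839 had a positive value and 5221 a negative one. Of 12 adipocyte markers only Retn was called, and it fell, beside 2.02% of all tested genes that fell. Of the 12, 11 had a negative log2 fold change (median -0.075). The adipocyte list summed to 12298 to 12948 FPKM in DoxSa and 12308 to 12712 FPKM in DMSO. Of 5 tested smooth muscle and pericyte markers 4 were called lower, beside 2.02% of all tested genes. The list summed to 410 to 465 FPKM in DoxSa and 585 to 652 FPKM in DMSO. No progenitor marker was called, and that list summed to 1757 to 1964 FPKM in DoxSa and 1697 to 1992 FPKM in DMSO. Mesothelial markers summed to 11.6 to 16.2 FPKM in DoxSa and 16.8 to 17.3 FPKM in DMSO, and the dendritic, neutrophil, lymphocyte and endothelial lists to at most 4.41 FPKM in any library. Each of the 22962 genes of the table was above 0 in some library, so no marker could be found at 0 in all. Cell type markers without a row, namely Cd8a, Ms4a1, Cd209a and Retnlg, were not scored. The 9 mitochondrial genes listed as a check of RNA quality had no row either, so that check was not made. In such bulk libraries a change in the number of cells of a type and a change in RNA per cell cannot be told apart.

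Of these enzyme genes, 9 were transcribed at more than 1 FPKM in every DMSO and every DoxSa library, and Cyp4f18 was close to silent. Degs1, Fads3 and Cers2 were the abundant ones, Cers5 followed, and Cyp4f13, Cyp4f16, Cyp4f17, Cers6 and Cers4 were lower. In the comparison of DoxSa with DMSO, 0 of the 9 tested genes were called in either direction, where 5.9% of all 12060 tested genes were called (limma on log2(FPKM + 1), Benjamini-Hochberg adjusted p under 0.05 over all tested genes, n = 4 per group). Voom on the recovered reads also called 0 of the 9 (7.29% of all genes), and at an unadjusted p under 0.05 the count was 1, Fads3 (19.8% of all genes). Groups that did not overlap were seen for 0 of the 9, against 12.5% of all tested genes.

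**Figure D1:**
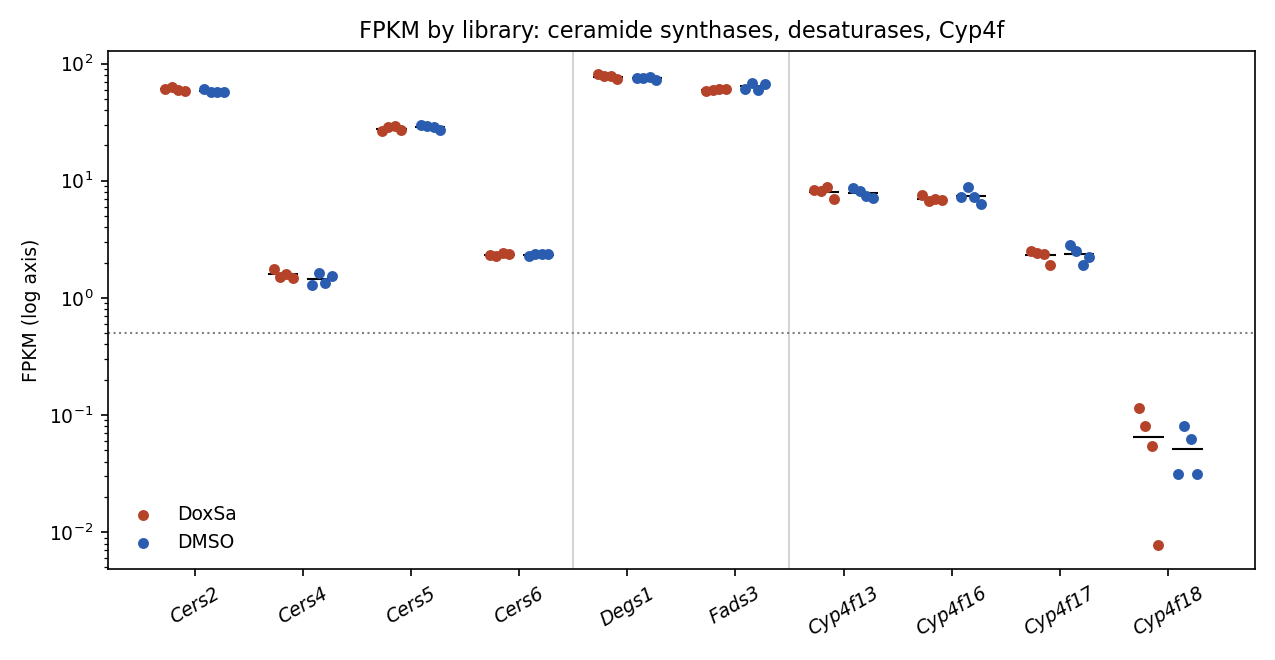
FPKM (log axis) of the 10 enzyme genes in each DoxSa library (red, left) and each DMSO library (blue, right), with the group mean as a bar and the minimum mean of 0.5 FPKM for testing as a dotted line. Red and blue points overlap for every gene, and Cyp4f18 alone lies under the line.

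The changes were small as well as uncalled. Log2 fold changes (DoxSa over DMSO, after adding 1 FPKM, so that changes of low genes come out too small) ran from -0.104 for Fads3 to 0.081 for Cers4, with 5 positive and 4 negative. Their median absolute value was 0.048, beside 0.056 over all tested genes and 0.286 over the 712 called genes. The 95% intervals of the 9 genes reached no lower than -0.229 and no higher than 0.214, so larger shifts on this scale lay outside the interval of each gene.

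Of the ceramide synthases, Cers2 makes the very long chain ceramides and was the most abundant. Cers2 measured 60.8, 62.8, 59.7 and 58.9 FPKM in DoxSa 1 to 4, against 60.7, 56.7, 57.7 and 56.7 FPKM in DMSO 1 to 4. All 4 DoxSa libraries lay above the DMSO mean, but DMSO 1 lay above DoxSa 3 and DoxSa 4. The log2 fold change was 0.063 ± 0.035 (SE, 95% interval -0.014 to 0.139, adjusted p = 0.359).

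Cers5 and Cers6 both make palmitoyl ceramides. Cers5 measured 26.5, 28.5, 29.2 and 27.3 FPKM in DoxSa 1 to 4, against 29.8, 29.1, 29.0 and 27.0 FPKM in DMSO 1 to 4. The groups overlapped almost fully, and the estimated log2 difference was -0.042 ± 0.042 (adjusted p = 0.652). Cers6 measured 2.32, 2.28, 2.43 and 2.35 FPKM in DoxSa 1 to 4, against 2.26, 2.39, 2.37 and 2.35 FPKM in DMSO 1 to 4. It was the steadiest of these genes, with a coefficient of variation over the 8 libraries of 2.36%, where counting error alone gives 2.28% for its mean of 1921 reads. The log2 fold change of Cers6 was 0.00089 ± 0.044, with a 95% interval of -0.095 to 0.097, and its sign turned under other scalings.

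Cers4, which prefers long chain stearoyl and arachidoyl groups, was the lowest ceramide synthase of the 4. It measured 1.75, 1.499, 1.61 and 1.49 FPKM in DoxSa 1 to 4, against 1.29, 1.62, 1.33 and 1.55 FPKM in DMSO 1 to 4. DoxSa 1 was the highest library and DMSO 1 and DMSO 3 the lowest, but DMSO 2 and DMSO 4 lay among the DoxSa values. The log2 fold change was 0.081 ± 0.061 (95% interval -0.052 to 0.214, adjusted p = 0.520).

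The shares of the ceramide synthases rest in part on the gene length behind the FPKM. The deposited values of Cers6 were made with a length of 20179 bases, while its longest coding transcript in GENCODE M21 has 7038. Cers6 thus had 1828 to 2003 reads per library in DoxSa and 1862 to 1947 in DMSO, near the reads of Cers5 (2204 to 2400 in DoxSa and 2220 to 2450 in DMSO), at a far lower FPKM. Taken as shares of the summed FPKM of the 4 genes, Cers2 held 65.6% ± 0.986 in DoxSa and 64.1% ± 0.739 in DMSO (SD, n = 4 each), and Cers5 held 30.2% ± 0.986 in DoxSa and 31.7% ± 0.696 in DMSO. Cers6 held 2.54% ± 0.097 in DoxSa and 2.59% ± 0.129 in DMSO, and Cers4 1.72% ± 0.143 in DoxSa and 1.60% ± 0.214 in DMSO. With the annotated transcript lengths, an alternative chosen after seeing the data, the share of Cers6 was 6.94% in DoxSa and 7.12% in DMSO, and that of Cers5 20.8% in DoxSa and 22.0% in DMSO. The order Cers2, Cers5, Cers6, Cers4 held under both lengths. A length acts alike on all 8 libraries and leaves the ratio between groups as it was.

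**Figure D2:**
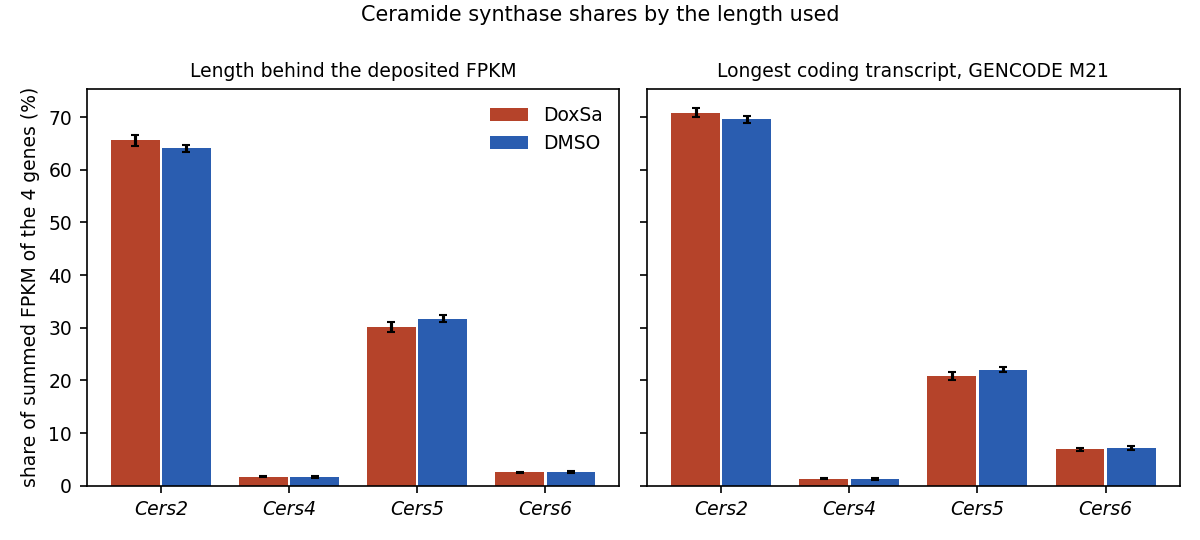
Share of each ceramide synthase in the summed FPKM of the 4 genes (%, mean with SD as error bar, n = 4) in DoxSa (red) and DMSO (blue), with the length behind the deposited values (left panel) and with the longest coding transcript (right panel). Cers6 stands at 2.54% in DoxSa and 2.59% in DMSO on the left, and at 6.94% in DoxSa and 7.12% in DMSO on the right.

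The 2 desaturases were the other abundant genes. Degs1, the desaturase of ordinary dihydroceramides, measured 81.0, 77.6, 77.6 and 73.8 FPKM in DoxSa 1 to 4, against 75.3, 75.1, 76.8 and 72.3 FPKM in DMSO 1 to 4. Of the DoxSa libraries 3 lay above every DMSO library and DoxSa 4 lay among them. The log2 fold change was 0.048 ± 0.036 (SE, adjusted p = 0.513).

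Fads3, the desaturase of deoxysphingoid bases, measured 58.2, 59.0, 60.5 and 60.4 FPKM in DoxSa 1 to 4, against 60.8, 68.8, 59.7 and 67.4 FPKM in DMSO 1 to 4. The DoxSa libraries were close together and below the DMSO mean in 4 of 4, while the DMSO libraries fell into a low pair (1 and 3) and a high pair (2 and 4). The log2 fold change of -0.104 ± 0.047 (95% interval -0.208 to -0.00073) had an unadjusted p of 0.0487 in limma and an adjusted p of 0.248. Leaving out each library in turn moved it between -0.138 and -0.070, nearest to 0 without DMSO 2.

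The libraries with high Fads3 also differed in other genes. Fads1 and Fads2, the neighbouring desaturase genes of polyunsaturated fatty acid synthesis, showed the same DMSO order. Fads2 measured 40.2, 39.5, 39.9 and 41.7 FPKM in DoxSa 1 to 4, against 41.5, 45.5, 40.5 and 43.7 FPKM in DMSO 1 to 4, and Fads1 measured 55.2, 55.0, 59.0 and 57.0 FPKM in DoxSa, against 58.8, 61.4, 58.5 and 61.3 FPKM in DMSO. Neither was called, with log2 fold changes of -0.083 ± 0.041 for Fads2 (adjusted p = 0.285) and -0.084 ± 0.035 for Fads1 (adjusted p = 0.203).

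Some cell type markers also differed between these libraries. Plin1, which encodes the lipid droplet coat perilipin, measured 210.5, 186.9, 204.3 and 199.4 FPKM in DoxSa 1 to 4, against 207.3, 224.4, 204.0 and 220.2 FPKM in DMSO 1 to 4. Adgre1, the macrophage gene of F4/80, measured 172, 183, 185 and 191 FPKM in DoxSa 1 to 4, against 177, 162, 186 and 163 FPKM in DMSO 1 to 4. DMSO 2 and DMSO 4 thus had the highest Plin1, the lowest Adgre1 and the lowest sums of the 12 macrophage markers (7308 and 7105 FPKM, against 7600 and 8160 in DMSO 1 and DMSO 3). Cd68 and Csf1r, further macrophage genes, were likewise lowest among the DMSO libraries in DMSO 2 and DMSO 4, at 351 and 336 FPKM for Cd68 and 96.3 and 94.6 FPKM for Csf1r. The adipocyte markers as a list did not set DMSO 2 and DMSO 4 apart: they summed to 12649, 12712, 12308 and 12525 FPKM in DMSO 1 to 4, and Adipoq was lower in DMSO 2 (730.0 FPKM) than in any other of the 8 libraries. Among the DoxSa libraries the markers and Fads3 did not keep this order. DoxSa 1 had the lowest Fads3 of the DoxSa libraries (58.2 FPKM). It also had their highest Plin1 (210.5 FPKM) and their lowest Adgre1 (172 FPKM) and Cd68 (384 FPKM). The part of cell makeup in the Fads3 difference was not tested.

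**Figure D3:**
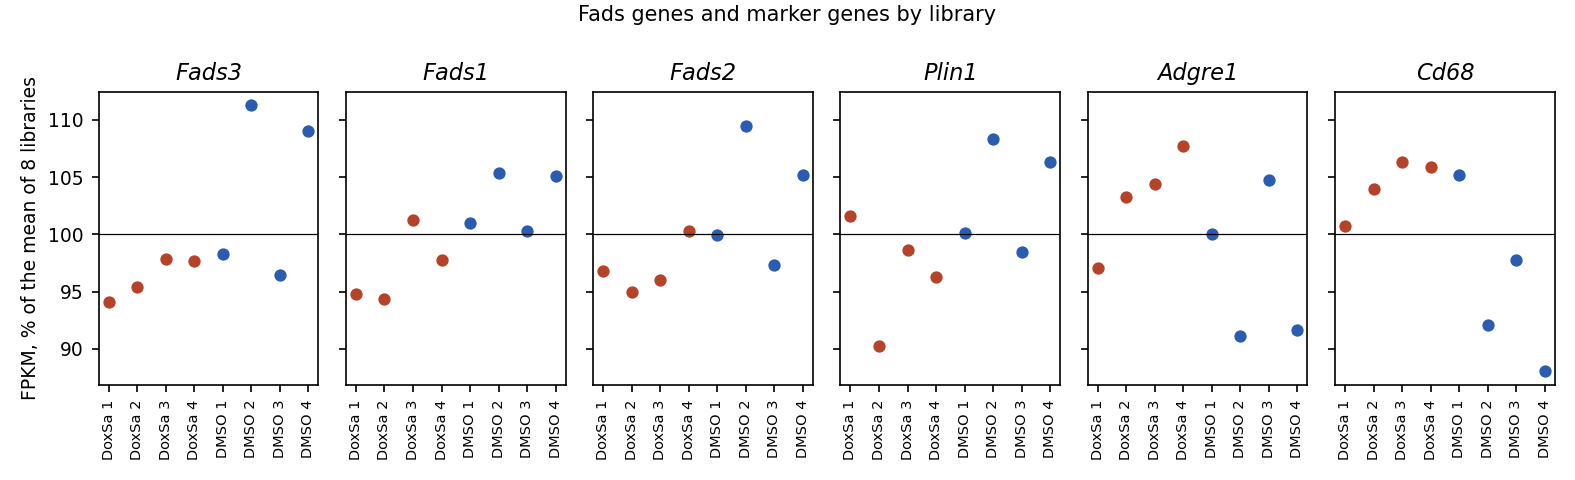
FPKM of Fads3, Fads1, Fads2, Plin1, Adgre1 and Cd68 in each library as a percentage of the gene's mean over the 8 libraries (DoxSa red, DMSO blue, 1 point per library). DMSO 2 and DMSO 4 stand highest for Fads3, Fads1, Fads2 and Plin1 and lowest for Adgre1 and Cd68 among the DMSO libraries. Among the DoxSa libraries, DoxSa 1 stands lowest for Fads3, Adgre1 and Cd68 and highest for Plin1.

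Among 10728 other protein coding genes that averaged 1 FPKM or more, the patterns most like that of Fads3 over the 8 libraries included those of Ces1d, a carboxylesterase gene (Pearson r = 0.945), and Fads2 (r = 0.941). These values describe 8 libraries that share their treatment groups, and with so many genes high values are common. Cers2 and Degs1 ran against Fads3 (r = -0.774 and -0.677), which again is a description only.

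The Cyp4f genes, which hydroxylate the far end of lipid chains, were of middle to low abundance. Cyp4f13 measured 8.28, 8.12, 8.84 and 7.04 FPKM in DoxSa 1 to 4, against 8.70, 8.14, 7.34 and 7.15 FPKM in DMSO 1 to 4, and Cyp4f16 measured 7.49, 6.73, 7.02 and 6.89 FPKM in DoxSa, against 7.27, 8.88, 7.19 and 6.37 FPKM in DMSO. The highest Cyp4f13 library was DoxSa 3 and the lowest DoxSa 4, while both extremes of Cyp4f16 were DMSO libraries. Their log2 fold changes were 0.038 ± 0.071 (adjusted p = 0.833) for Cyp4f13 and -0.061 ± 0.076 (adjusted p = 0.728) for Cyp4f16.

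Cyp4f17 measured 2.52, 2.40, 2.39 and 1.90 FPKM in DoxSa 1 to 4, against 2.80, 2.50, 1.93 and 2.25 FPKM in DMSO 1 to 4. Each group had a low library, DoxSa 4 and DMSO 3, and the log2 fold change was -0.027 ± 0.086 (adjusted p = 0.911). With a mean of 297 reads per library, Cyp4f17 had the widest spread of the tested genes, at 13.1% over the 8 libraries, where counting error alone gives 5.81%.

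Cyp4f18, which in mouse myeloid cells oxidises leukotriene B4, was covered by 15, 10, 7 and 1 reads in DoxSa 1 to 4, against 4, 10, 8 and 4 reads in DMSO 1 to 4. This equals 0.0077 to 0.115 FPKM in DoxSa and 0.031 to 0.081 FPKM in DMSO, around the 0.0231 to 0.0244 FPKM that 3 reads are worth. It was under the minimum for the fit across genes, and an exact two-sided permutation test of its FPKM gave p = 0.686 (n = 4 per group). Its coefficient of variation over the 8 libraries was 59.5%, where counting error alone gives 36.8%. With these read numbers, the means of 0.064 FPKM in DoxSa and 0.052 FPKM in DMSO were not told apart. What size of difference could be detected was not tested. The macrophage markers named above were abundant in the same libraries, with Itgam at 63.8 to 74.0 FPKM in DoxSa and 61.9 to 70.2 FPKM in DMSO.

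In the order of mean FPKM in DMSO, Fads3 and Cers2 overlapped in their library values, as did Cyp4f13 and Cyp4f16, and Cyp4f17 and Cers6. Degs1 lay above Fads3, Cers2 above Cers5, Cers5 above Cyp4f13, Cyp4f16 above Cyp4f17, Cers6 above Cers4 and Cers4 above Cyp4f18 in every library of both groups. Between genes this order also rests on the lengths used: with the annotated transcript lengths Cers2 averaged 68.6 FPKM in DoxSa and 65.7 FPKM in DMSO, above Fads3 at 52.8 FPKM in DoxSa and 56.9 FPKM in DMSO. Cers6 averaged 6.72 FPKM in DoxSa and 6.71 FPKM in DMSO with those lengths, above Cyp4f17 at 2.45 FPKM in DoxSa and 2.52 FPKM in DMSO. Among all tested genes, the mean deposited levels of Degs1, Fads3 and Cers2 lay at the percentiles 92.8, 91.3 and 91.0, that of Cers5 at 82.3, and that of Cers4 at 14.9.

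Whether the genes of chosen pairs changed unequally was asked with the ratio of each pair within each library. Fads3 and Degs1 are both desaturase genes but, as said above, not of the same step. The log2 ratio of Fads3 over Degs1 was -0.38 ± 0.078 in DoxSa and -0.22 ± 0.131 in DMSO (SD, n = 4 each), a difference of -0.155 (exact two-sided permutation p = 0.143, adjusted p = 0.386 over the 3 pairs). Cers6 over Cers2 differed by -0.063 (exact permutation p = 0.257, adjusted p = 0.386) and Cers5 over Cers6 by -0.045 (exact permutation p = 0.457, adjusted p = 0.457). None of the 3 passed the threshold, and the smallest p that the 70 assignments allow is 0.0286, so that 1 pair alone could not have passed after adjustment over the 3.

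**Figure D4:**
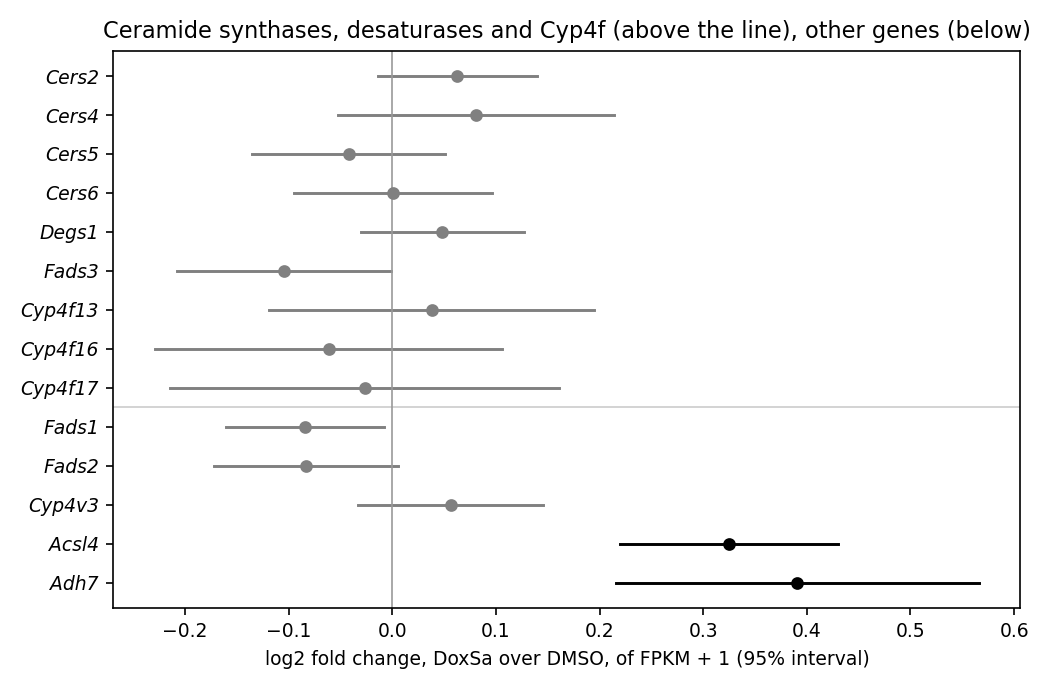
Log2 fold change of FPKM + 1 (DoxSa over DMSO, points) with its 95% interval (lines) for the 9 tested enzyme genes, above the grey line, and for Fads1, Fads2, Cyp4v3, Acsl4 and Adh7 below it. Black marks an adjusted p under 0.05, which Acsl4 (0.325) and Adh7 (0.391) reached and none of the 9 did.

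The close relatives of these genes that had a row in the table were mostly silent. Of 21 listed relatives, those without a row, Cers1, Cyp4f15, Cyp4f39 and Cyp4f41 among them, were not analysed here. Of 12 relatives in the table, 9 were under the minimum for testing, among them Cers3, the synthase of skin ceramides, with 0 to 1 reads in DoxSa and 0 to 5 in DMSO, and Degs2, the desaturase and hydroxylase of phytoceramides, with at most 0.0135 FPKM in DoxSa and 0.0285 FPKM in DMSO. Cyp4f14, Cyp4f37, Cyp4f40, Cyp4a12b and Cyp4a14 reached at most 0.0273 FPKM in DoxSa and 0.0103 FPKM in DMSO. The fatty acid desaturase family gene Fads6 measured 0.125 to 0.218 FPKM in DoxSa and 0.094 to 0.225 FPKM in DMSO. Cyp4b1 measured 0.227, 0.276, 0.344 and 0.139 FPKM in DoxSa 1 to 4, against 0.153, 0.133, 0.154 and 0.140 FPKM in DMSO 1 to 4, and was not tested. Cyp4v3, a fatty acid hydroxylase, was the most abundant Cyp4 gene of the list, at 13.3 ± 0.631 FPKM in DoxSa and 12.8 ± 0.284 FPKM in DMSO, and was not called (log2 fold change 0.056 ± 0.041, adjusted p = 0.5).

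Of 49 tested genes of the wider pathway, 2 rose and 0 fell, beside 3.88% higher and 2.02% lower among all tested genes (468 and 244 genes, or 384 and 316 with quantile normalization), and the median log2 fold change was 0.015 beside 0.012. Groups did not overlap for 6 of the 49, beside 12.5% of all tested genes. Acsl4, an acyl-CoA synthetase that prefers arachidonate, rose: it measured 21.6, 19.1, 19.5 and 20.04 FPKM in DoxSa 1 to 4, against 14.9, 15.4, 16.2 and 16.7 FPKM in DMSO 1 to 4. All DoxSa libraries lay above all DMSO libraries, and Acsl4 had a log2 fold change of 0.325 with an SE of 0.048 (adjusted p = 0.00308). Adh7, an alcohol dehydrogenase of retinol and long chain alcohols, also rose, with 137, 117, 94 and 98 reads in DoxSa 1 to 4, against 46, 70, 72 and 54 reads in DMSO 1 to 4. Its level was 1.12 ± 0.198 FPKM in DoxSa and 0.612 ± 0.135 FPKM in DMSO, a log2 fold change of 0.391 ± 0.080 (adjusted p = 0.0166), and its call was lost without DoxSa 2 (adjusted p = 0.0554) and with no filter on low genes (adjusted p = 0.0804). The size of this value depends on the added 1 FPKM: the log2 fold change of Adh7 was 0.78 after adding 0.1 FPKM and 0.86 by voom.

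By role, 0 of 7 tested genes of base synthesis were called, with Sptlc2, a catalytic subunit of serine palmitoyltransferase, at a log2 fold change of 0.118 ± 0.052 (adjusted p = 0.231) and the inhibitor gene Ormdl2 at 0.121 ± 0.041 (adjusted p = 0.121). Of 15 genes of acyl-CoA supply 1 was called higher, namely Acsl4, beside 3.88% of all tested genes. Tecr, the reductase that ends each round of fatty acid elongation, measured 146 ± 4.23 FPKM in DoxSa and 157 ± 2.02 FPKM in DMSO without a call (adjusted p = 0.0659). Of 5 genes that pass electrons to desaturases and P450 enzymes 0 were called, with Por, the P450 reductase, at 0.125 ± 0.043 (adjusted p = 0.130). Neither the 10 tested genes of ceramide use and ceramidases nor the 4 of sphingoid phosphates held a call, and Sgpl1, the lyase that ends the canonical route, stood at 0.099 ± 0.032 (adjusted p = 0.107). Of 5 genes of alcohol and aldehyde oxidation 1 was called higher, namely Adh7, beside the same 3.88% of all tested genes.

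**Figure D5:**
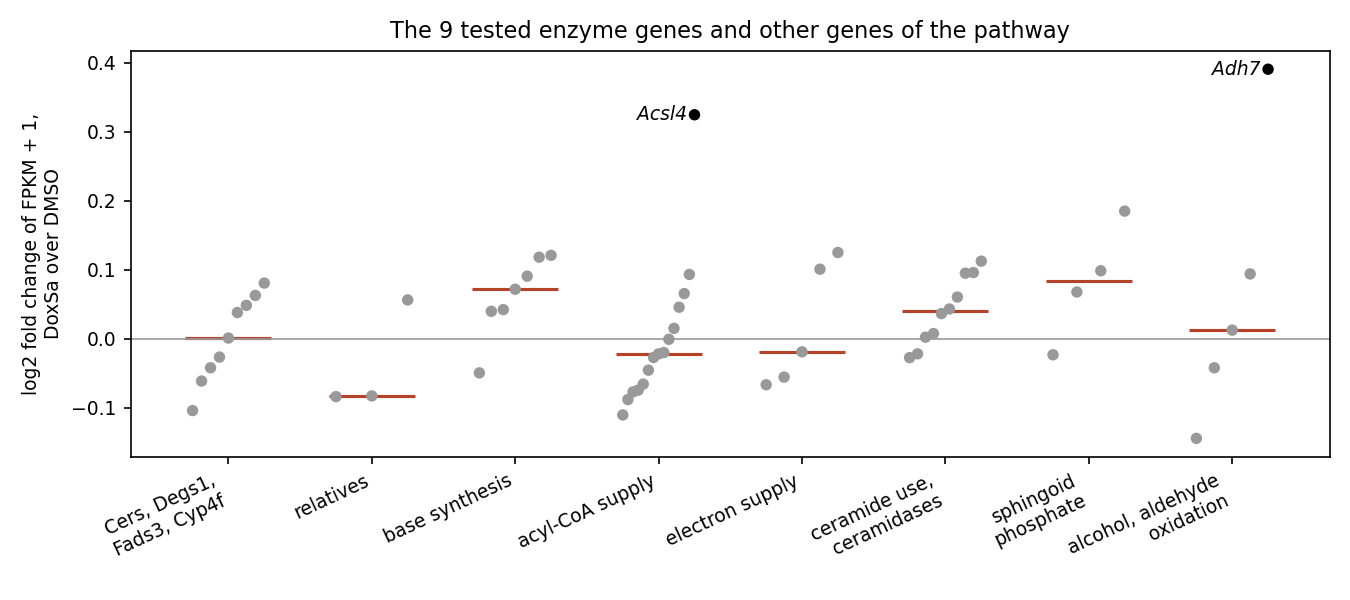
Log2 fold change of FPKM + 1 (DoxSa over DMSO) of each tested gene (points) by role, with the median of each role as a red line. Black points, Acsl4 and Adh7, are the only ones with an adjusted p under 0.05.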

How the data were processed

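RNA of 8 libraries was extracted with TRIzol and made into libraries with a VAHTS Universal V6 kit, per the labels' protocols. HISAT2, HTSeq and build GRCm39 are named in the submitters' processing notes. No version, annotation or strand setting was found in the labels, so whether overlapping and antisense genes were told apart is not known. The authors deposited FPKM per gene and library, and 0 columns of values were left unmapped. Groups came from the titles. Library totals, gene lengths and whole reads were recovered from the FPKM steps (12060 of 12060 tested genes within 0.001 of whole reads).

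The test was limma 3.58.1 (R 4.3.3; lmFit, eBayes with trend) on log2(FPKM + 1) for the 12060 genes that averaged 0.5 FPKM or more, Benjamini-Hochberg adjusted over all of them. It was tested on simulated data. Python 3.11.15, numpy 2.4.6, pandas 2.3.3, scipy 1.17.1, Biopython 1.88 and matplotlib 3.10.9 were used otherwise. Library pairs of a group differed beyond sampling noise (lowest chi-square over degrees of freedom 5.67), so all were kept as separate samples. Of 165 list entries 140 matched a gene of the table, and the others were not analysed here, as were coordinates, because the GENCODE M21 annotation used for transcripts is of GRCm38. The genes and lists were chosen with earlier results of these data known. All 10 enzyme genes, their relatives, every called pathway gene, 6 cell type markers and the 3 genes most like Fads3 were to be named, and genes beyond that rule (Sptlc2, Ormdl2, Tecr, Por, Sgpl1, Adh1, Retn, Cd14, Fcgr1) were chosen after their values were seen; 1 gene that the rule names is not reported here. Counting-error figures cover counting only. Alternatives covered pseudocount, filter, trend, library weights, scaling, voom on reads, a replicate block, gene length and each library left out.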

Additional observations from a re-analysis of the deposited data

How the results depend on the processing

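None of the 9 tested enzyme genes was called under any of the 19 alternatives in which it was tested (18 for Cers4, which falls under a minimum of 2 FPKM). Leaving out each library in turn gave 234 to 486 genes called higher and 152 to 234 called lower, 0 enzyme genes, and 1 to 2 pathway genes higher; 234 higher and 152 lower came without DoxSa 2, 250 and 154 without DoxSa 1, and 158 lower without DMSO 2. With no filter, 158 genes were higher and 108 lower, and 1 pathway gene was called higher, as with a minimum of 2 FPKM (Adh7 not tested) and without DoxSa 2; Adh7 had an adjusted p of 0.0804 with no filter. Voom called 371 genes lower, and 2 pathway genes lower, Tecr and Adh1; Tecr alone (1) was called lower with equal FPKM sums, and Adh1 alone (1) under quantile normalization and under median-of-ratios scaling. Quantile normalization gave 384 genes higher and 316 lower. Signs turned for values near 0: Cers6 to -0.0089 with equal sums, -0.011 with median-of-ratios scaling, -0.014 with quantile normalization and by voom, -0.011 without DoxSa 3 and without DMSO 1 (left-out range up to 0.0098); Cyp4f13 to -0.0027 without DoxSa 3 (range up to 0.095); Cyp4f16 to 0.018 without DMSO 2 (range from -0.123); Cyp4f17 to 0.035 without DoxSa 4 and 0.034 without DMSO 1 (range from -0.092). The gene pair differences ranged from -0.102 to -0.032 (Cers6 over Cers2), -0.076 to -0.0092 (Cers5 over Cers6) and -0.202 to -0.113 (Fads3 over Degs1) over left-out libraries. Why these values moved was not tested. Same-numbered libraries of the groups did not deviate together (correlations of -0.099 to 0.065). These correlations cannot settle whether the numbers mark shared cultures, which the labels do not say. With the replicate block, 415 genes were called higher and 209 lower, 0 of them enzyme genes, and the pathway calls were the same 2. For Cers6 the spread between libraries was close to counting error (2.36% and 2.28%), and for the other enzyme genes, Cyp4f18 included, it was wider.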
